A study of Mus musculus with 4 samples.

Results

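The 10 genes described here encode transcription factors and chromatin proteins that maintain blood stem cells: Erg and Etv6 of the ETS family, Gata2 and Gata3 of the GATA family, Runx1, the zinc finger proteins Mecom and Prdm16, the basic leucine zipper protein Hlf, and Mycn and Hmga2. They were taken by name. All 10 had a probe set that carries a single gene symbol, out of 19938 genes with such a probe set. Where a gene had more than 1 probe set, the one with the highest mean was used. Expression was read from 4 Affymetrix whole-transcript arrays of leukemia stem cells from a mouse retroviral model of chronic myeloid leukemia: 2 of cells from Hif1a-/- donor marrow and 2 of cells from WT donor marrow. Hif1a encodes the subunit of the transcription factor HIF-1 that is stable at low oxygen. Donors of both genotypes had been treated with 5-fluorouracil, their marrow was infected with a retrovirus for the fusion kinase BCR-ABL and for green fluorescent protein, and recipients of either kind of marrow were B6 mice with a normal Hif1a gene. Cells were sorted 14 days later from recipient marrow as fluorescent, lineage-negative cells with c-Kit and Sca-1 on the surface. The labels give strain C57BL/6 (B6) and an age of 8 weeks for all 4 samples, name no deleted exon, Cre or deletion method for Hif1a, and call the samples biological replicates without saying whether they came from separate or pooled mice, so the spread behind each p-value may be technical in part.

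In blood stem cells these factors act together at shared regulatory regions. Erg, Runx1 and Gata2 bind enhancers jointly with Fli1, Tal1, Lyl1 and Lmo2, and the group holds genes of the stem cell state open. Mecom, Prdm16 and Hlf are high in the most primitive cells and are lost as cells differentiate. Mycn, with its relative Myc, balances self-renewal against differentiation. Hmga2 bends DNA and is best known from fetal stem cells, where low levels of let-7 microRNAs let it accumulate.

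Values are log2 expression after robust multi-array averaging (RMA), so a difference of 1 is a 2-fold difference. Array medians over all genes lay between 8.53 and 8.57. Hif1a itself read 11.25 and 11.39 in Hif1a-/- cells, against 11.34 and 11.50 in WT cells, which is a weak check of the labels, since the deleted part of the gene is not named and the rest may still be transcribed. The 2 WT arrays were the least alike pair, with a median absolute difference of 0.19 over all genes, against 0.11 for the 2 Hif1a-/- arrays. Genes of cells that the lineage gate should remove were high on WT replicate 1. Ly6g, a neutrophil surface gene, read 11.74 and 11.64 in Hif1a-/- cells, against 13.10 and 10.64 in WT cells. The summed linear signal of the 8 genes measured of the lineage list, which includes the pan-leukocyte gene Ptprc, was 8837 and 8354 in Hif1a-/- cells, against 17760 and 6485 in WT cells. Kit, a gene of the sort gate, read 10.95 and 10.61 in Hif1a-/- cells, against 10.32 and 11.07 in WT cells, and Ly6a, which encodes Sca-1, was not among the genes with a single-symbol probe set.

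All 10 stem cell factors had a lower mean in Hif1a-/- than in WT cells, although 9 of the 10 differences lay within overlapping groups. A lower mean was found in 38.6% of all 19938 genes, and 9 of the 10 stem cell factors had one after a second quantile normalization, where Gata2 turned to 0.026. The median difference of the 10 genes, Hif1a-/- minus WT, was -0.15 on the log2 scale, beside 0.03 over all genes. The list of 8 lineage surface and leukocyte genes likewise had 8 lower means, with a median of -0.23, or 3 lower means and a median of 0.08 without WT replicate 1. Only Erg was below both WT arrays on each Hif1a-/- array, beside 9.05% of all genes, and 0 of the 10 were above both WT arrays on each, beside 15.7%. By limma, 0 of the 10 had an adjusted p under 0.05, as did 0% of all genes. Erg alone had an unadjusted limma p under 0.05, lower in Hif1a-/- cells, beside 0.978% of all genes lower and 0.697% higher. In RNA of sorted cells, fewer cells of a type and less RNA per cell cannot be told apart.

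**Figure D1:**
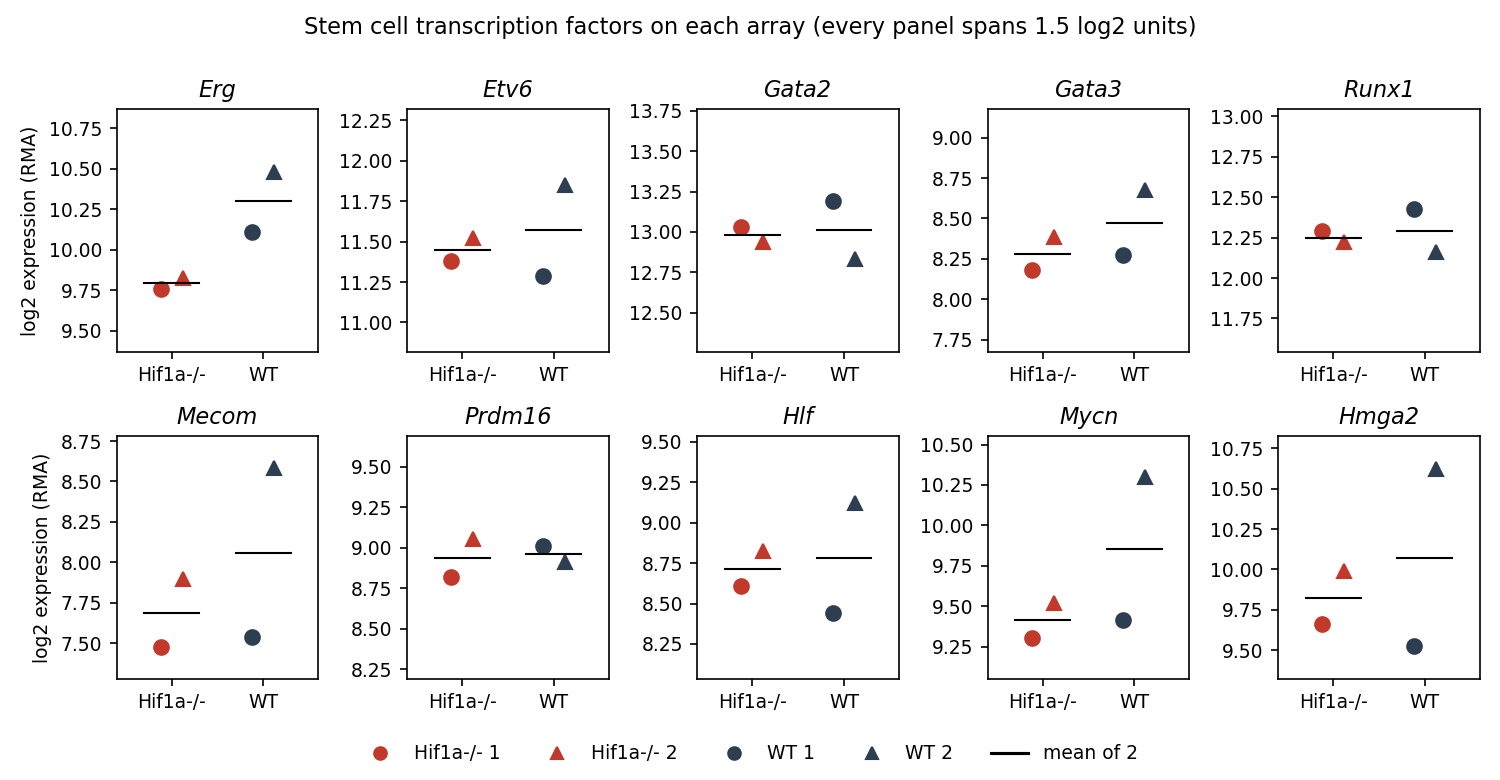
Log2 expression (RMA, y axis) of each stem cell factor on each array, with Hif1a-/- in red on the left and WT in dark blue on the right; circles are replicate 1, triangles replicate 2 and bars the mean of 2. The Erg values separate by genotype, from 9.76 to 9.83 in Hif1a-/- and from 10.11 to 10.48 in WT cells, and in the other 9 panels the genotypes overlap.

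Erg, an ETS factor needed for stem cell maintenance, was the 1 member of 10 that separated by genotype. That count is near the share of all genes lower without overlap, 9.05%. Erg read 9.76 and 9.83 in Hif1a-/- cells, against 10.11 and 10.48 in WT cells. The groups did not overlap, and the nearer WT value was that of replicate 1. The means were 9.79 ± 0.05 in Hif1a-/- cells and 10.30 ± 0.26 in WT cells (SD, n = 2 each). The difference was -0.50 ± 0.16 (SE), or 1.42-fold lower in Hif1a-/- cells, with a 95% interval from -0.88 to -0.12. The unadjusted limma p was 0.0174 and the limma p adjusted over all genes 0.999. With 2 arrays a group, the smallest two-sided p of an exact permutation test is 0.33, the value Erg reached. Of all genes, 0.868% had a difference at least as large in either direction. The gap of 0.37 between the WT arrays was smaller than this difference. Leaving out WT replicate 2 gave -0.32, and leaving out WT replicate 1 gave -0.69, each with a single WT array left to stand for its genotype.

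RefSeq (GRCm38.p6) lists 3 transcription starts for Erg, and the 250 bases before each are shown because Erg is the member whose groups did not overlap and the genotype concerns a DNA-binding factor. Capitals mark the core letters of HIF binding, ACGTG or GCGTG, on either strand.
Erg start 1, chr16:95586594-95586843, minus strand: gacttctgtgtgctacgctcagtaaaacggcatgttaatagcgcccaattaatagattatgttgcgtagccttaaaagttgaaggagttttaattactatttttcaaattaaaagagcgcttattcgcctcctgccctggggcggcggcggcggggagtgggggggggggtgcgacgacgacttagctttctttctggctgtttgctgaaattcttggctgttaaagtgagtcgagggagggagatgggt
Erg start 2, chr16:95530366-95530615, minus strand: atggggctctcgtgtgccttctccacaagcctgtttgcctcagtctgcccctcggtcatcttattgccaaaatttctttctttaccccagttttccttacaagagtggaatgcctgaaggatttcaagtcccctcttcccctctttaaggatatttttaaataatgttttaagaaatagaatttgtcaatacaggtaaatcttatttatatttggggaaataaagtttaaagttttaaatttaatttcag
Erg start 3, chr16:95459349-95459598, minus strand: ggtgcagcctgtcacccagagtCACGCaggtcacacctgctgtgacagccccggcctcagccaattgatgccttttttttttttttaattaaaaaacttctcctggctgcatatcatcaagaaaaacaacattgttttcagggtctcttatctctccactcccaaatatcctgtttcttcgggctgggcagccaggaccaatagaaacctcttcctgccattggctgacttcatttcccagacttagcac
The windows of starts 1 and 2 held no HIF core letters, and that of start 3 held 1 match to GCGTG, which begins 228 bases before the start on the opposite strand. The same window held the GATA letters AGATAA on the opposite strand, 103 bases before the start. Of 32841 such windows of all genes, 38.6% held ACGTG or GCGTG and 9.99% held AGATAA. The array's probe set does not tell transcripts from these starts apart.

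Etv6, an ETS repressor that adult stem cells need to persist in marrow, differed little between genotypes and more between the WT arrays. It read 11.38 and 11.52 in Hif1a-/- cells, against 11.29 and 11.85 in WT cells. Both Hif1a-/- values fell between those of the WT arrays. The difference was -0.12 ± 0.20 (SE), and the 95% interval ran from -0.60 to 0.36 (unadjusted limma p 0.580), beside a gap of 0.56 between WT replicate 2 and WT replicate 1. Among other ETS genes, Fli1, the close relative of Erg, read 11.45 and 11.53 in Hif1a-/- cells, against 11.57 and 11.63 in WT cells. Its groups did not overlap, but the difference was -0.11 with an unadjusted limma p of 0.391. Ets1, Ets2, Elf1, Gabpa and Etv3 differed by -0.11, -0.12, -0.10, -0.05 and -0.12, all with groups that overlapped.

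Gata2, which keeps stem and progenitor cells from differentiating and is also a mast cell regulator, read 13.03 and 12.94 in Hif1a-/- cells, against 13.19 and 12.83 in WT cells. The Hif1a-/- values lay between the WT values, and WT replicate 1 was the higher WT array. The difference was -0.03 ± 0.16 (SE), with a 95% interval from -0.40 to 0.35. Gata3, known from T cells and from the entry of stem cells into cycle, read 8.18 and 8.38 in Hif1a-/- cells, against 8.27 and 8.67 in WT cells. Here WT replicate 2 was the highest array, and the lower WT value fell between the 2 Hif1a-/- values. The Gata3 difference was -0.19 ± 0.17 (SE), with an unadjusted limma p of 0.307. Gata1, the erythroid and mast cell member of the family, differed by 0.12, and its cofactor Zfpm1 read 11.49 and 11.40 in Hif1a-/- cells, against 10.84 and 11.25 in WT cells. The Hif1a-/- arrays were the higher ones for Zfpm1, without overlap, with a difference of 0.40 ± 0.17 (SE) and an unadjusted limma p of 0.0519.

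Runx1, the core binding factor subunit required for blood stem cells to form, read 12.29 and 12.22 in Hif1a-/- cells, against 12.43 and 12.16 in WT cells. Its order over the arrays was that of Gata2, with WT replicate 1 highest and WT replicate 2 lowest. The difference was -0.04 ± 0.14 (SE), with a 95% interval from -0.38 to 0.30. Cbfb, the partner subunit that stabilises Runx1 on DNA, read 11.06 and 10.93 in Hif1a-/- cells, against 11.21 and 11.17 in WT cells. The Cbfb groups did not overlap, and the difference was -0.20 ± 0.13 (SE) with an unadjusted limma p of 0.166. Runx3, a relative with roles in myeloid and lymphoid cells, differed by -0.03 between genotypes and by 0.71 between WT replicate 2 and WT replicate 1.

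Mecom, a zinc finger factor of long-term stem cells that drives leukemia when overexpressed, had a wide spread in WT cells. It read 7.47 and 7.89 in Hif1a-/- cells, against 7.54 and 8.58 in WT cells. WT replicate 2 stood above the other 3 arrays, and WT replicate 1 fell between the Hif1a-/- arrays. The means were 7.68 ± 0.30 in Hif1a-/- cells and 8.06 ± 0.74 in WT cells (SD, n = 2 each), and the difference was -0.37 ± 0.34 (SE) with an unadjusted limma p of 0.304. A second Mecom probe set read 7.07 and 7.17 in Hif1a-/- cells, against 7.11 and 7.02 in WT cells. It differed by 0.05, and it did not show the higher value on WT replicate 2. Both sets were dim: 66.4% of all genes had a higher mean than the set used, and the second read lower on every array. Without detection calls, a signal near background cannot be told from a low one. Prdm16, the closest relative of Mecom and a factor that stem cells need for self-renewal, read 8.82 and 9.06 in Hif1a-/- cells, against 9.01 and 8.91 in WT cells. The WT values lay between the Hif1a-/- values, the difference was -0.02 ± 0.14 (SE), and Prdm16 was the only member with a smaller gap between the WT arrays (-0.10) than between the Hif1a-/- arrays (0.24).

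Hlf, a leucine zipper factor that marks stem cells and favours their quiescence, read 8.61 and 8.82 in Hif1a-/- cells, against 8.44 and 9.12 in WT cells. The WT arrays enclosed the Hif1a-/- arrays, with WT replicate 2 highest. The difference was -0.07 ± 0.23 (SE), and the gap between WT replicate 2 and WT replicate 1 was 0.68, or 1.61-fold. Its relatives Tef and Dbp differed by -0.11 and 0.08 between genotypes. Nfil3, a repressor that binds the same sites, read 10.82 and 10.82 in Hif1a-/- cells, against 11.64 and 10.71 in WT cells. WT replicate 1 alone was high, and the difference was -0.36, or 0.11 without that array.

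Mycn, a MYC family factor of self-renewing cells, read 9.30 and 9.52 in Hif1a-/- cells, against 9.41 and 10.30 in WT cells. WT replicate 2 alone stood apart, and WT replicate 1 fell between the Hif1a-/- arrays. The means were 9.41 ± 0.16 in Hif1a-/- cells and 9.86 ± 0.63 in WT cells (SD, n = 2 each). The difference of -0.45 ± 0.28 (SE) had an unadjusted limma p of 0.160 and became -0.0029 without WT replicate 2. Myc, the family member of dividing cells, differed by 0.09, its partner Max by -0.09 and the antagonist Mxd1 by -0.23. Mxd1 was 1.5 lower on WT replicate 2 than on WT replicate 1, while Mycn was 0.89 higher.

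Hmga2, the chromatin protein of fetal stem cells, had the largest gap between the WT arrays among the 10 members. It read 9.66 and 9.99 in Hif1a-/- cells, against 9.53 and 10.62 in WT cells. The WT arrays enclosed both Hif1a-/- arrays. WT replicate 2 exceeded WT replicate 1 by 1.09, or 2.13-fold, a gap that 1.35% of all genes reached in either direction. The difference between genotypes was -0.25 ± 0.34 (SE), with a 95% interval from -1.06 to 0.57. Lin28b, which blocks the maturation of let-7 and is known as an inducer of Hmga2, differed by -0.06 and by 0.06 between the WT arrays.

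**Figure D2:**
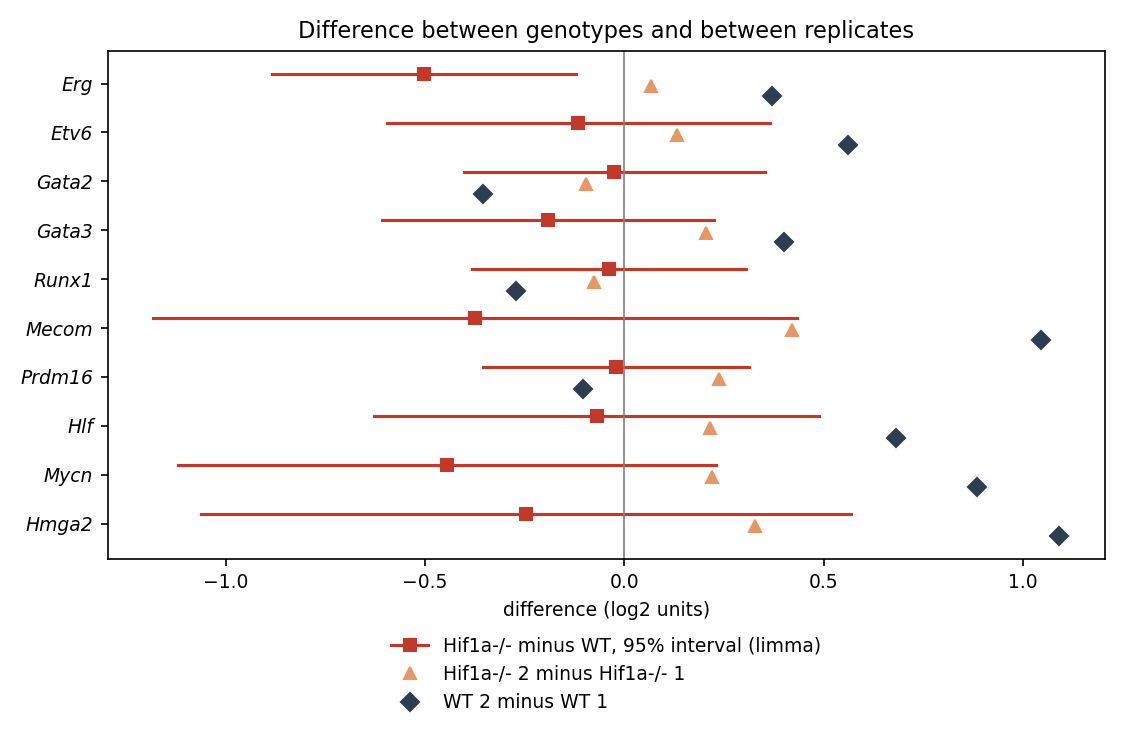
For each stem cell factor, the difference Hif1a-/- minus WT with its limma 95% interval (red square and line), the gap between the 2 Hif1a-/- arrays (orange triangle) and the gap between the 2 WT arrays (dark diamond), in log2 units on the x axis. Only the interval of Erg, from -0.88 to -0.12, leaves out 0, and the WT gap runs from -0.35 for Gata2 to 1.09 for Hmga2.

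The larger contrast in this group of genes was between the WT arrays. A gap between single arrays is noisier than a difference between means of 2 arrays, so the sizes are not like for like. WT replicate 2 was higher than WT replicate 1 for 7 of the 10 members, beside 45.4% of all genes, and lower for Runx1, Gata2 and Prdm16. The median of this gap was 0.48 over the 10 members and -0.03 over all genes. It reached at least 0.5 for 5 members (Mecom, Hmga2, Mycn, Hlf and Etv6), beside 8.28% of all genes, and was -0.5 or lower for 0, beside 3.34%. With 1 array on either side, this gap has no replicate check. Between the Hif1a-/- arrays the median gap, replicate 2 minus replicate 1, was 0.21, and 8 of the 10 were higher on replicate 2, beside 50.4% of all genes. For 9 of the 10 members the gap was larger between the WT arrays than between the Hif1a-/- arrays, beside 68.9% of all genes. For 5 members (Hlf, Runx1, Gata2, Etv6 and Hmga2) both Hif1a-/- values fell between the WT values, beside 32.9% of all genes.

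The members fell into patterns over the 4 arrays, described here by the root mean square distance between log2 values centred on each gene's own mean. The nearest pair was Runx1 and Gata2, at 0.030, both highest on WT replicate 1. Hlf and Etv6 were 0.057 apart and Mecom and Hmga2 0.073 apart, these being highest on WT replicate 2. Of 103 genes in the comparison lists, the nearest to Mecom were Sox4 at 0.076 and Meis1 at 0.13. Sox4, a factor of progenitors and leukemia, and Meis1, a partner of HOX proteins, were also the nearest to Mycn (0.12 for Sox4 and 0.19 for Meis1) and to Hmga2 (0.080 for Meis1 and 0.12 for Sox4). The genes nearest to Hlf were Runx3 at 0.038 and Cd48, a surface marker of progenitors, at 0.048. Etv6 lay nearest to Tie1, a receptor of endothelial and stem cells, at 0.011 and to Cd48 at 0.016. The genes nearest to Erg were Satb1 at 0.099 and Irf8 at 0.13, which also read lower on both Hif1a-/- arrays than on both WT arrays. The 4 other members had a range over the arrays under 0.5. With 4 arrays such distances describe these samples only.

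The partners that share enhancers with Erg, Runx1 and Gata2 did not follow Erg as a group. Of the 4, Fli1 had a lower mean in Hif1a-/- cells, while Tal1, Lyl1 and Lmo2 differed by 0.06, 0.09 and 0.26, with a median of 0.07 over the 4 genes beside 0.03 over all genes. Lmo2, a bridging protein of this complex, read 11.56 and 11.55 in Hif1a-/- cells, against 10.99 and 11.59 in WT cells. The low value was that of WT replicate 1, and without it Lmo2 differed by -0.037. By limma 0 of the 4 had an unadjusted p under 0.05. Among 23 measured relatives and binding partners of the members, the mean was lower in Hif1a-/- cells for 16 and higher for 7, with a median difference of -0.06. The groups did not overlap in 6 of the 23, 5 of them lower in Hif1a-/- cells and 1, Zfpm1, higher, beside 9.05% of all genes lower and 15.7% higher. By limma 0 of the 23 had an unadjusted p under 0.05, and Mxd4, a partner of Max, was the next after Zfpm1, at 0.0878 with a difference of -0.24.

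Other transcription factors of stem cells went both ways. Of 19 measured, 8 read lower on average in Hif1a-/- cells and 11 higher, with a median difference of 0.09. This split also depended on the WT array. Without WT replicate 1, 13 of the 19 read lower, with a median of -0.15. Without WT replicate 2, 4 of the 19 did, with a median of 0.21. Satb1, a chromatin organiser of stem and lymphoid progenitor cells, read 9.52 and 9.47 in Hif1a-/- cells, against 9.86 and 9.998 in WT cells. Both Hif1a-/- arrays were below both WT arrays, with a difference of -0.44 ± 0.13 (SE) and an unadjusted limma p of 0.0117. Gfi1b, a repressor of stem, erythroid and megakaryocyte cells, read 12 and 11.85 in Hif1a-/- cells, against 11.53 and 11.60 in WT cells. It was higher on both Hif1a-/- arrays, with a difference of 0.36 ± 0.13 (SE) and an unadjusted limma p of 0.0288. Over the 19 genes, 3 were below both WT arrays on each Hif1a-/- array and 3 above. These counts stand beside 9.05% of all genes lower and 15.7% higher. Bcl11a, a factor of lymphoid progenitors and globin silencing, differed by 0.36, but only by 0.093 without WT replicate 1. Between WT replicate 2 and WT replicate 1 the median gap of the 19 genes was 0.44, with 1.205 for Sox4, 1.03 for Meis1, 0.95 for Nfix and 0.71 for Myb.

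Of 17 measured transcription factors of differentiating lineages, 10 read lower on average in Hif1a-/- cells and 7 higher, with a median difference of -0.05. Irf8, which directs monocyte and dendritic cell development, read 9.49 and 9.29 in Hif1a-/- cells, against 9.90 and 10.07 in WT cells. Id2, an inhibitor of E proteins in lymphoid and dendritic cells, read 11.60 and 11.68 in Hif1a-/- cells, against 12.17 and 11.92 in WT cells. Klf1, the activator of globin genes, read 10.38 and 10.29 in Hif1a-/- cells, against 10.03 and 10.05 in WT cells. For all 3, named for the smallest p of the list, the groups did not overlap. Their differences were -0.59, -0.41 and 0.29, with unadjusted limma p of 0.00460, 0.0237 and 0.0495. Over the 17 genes, 3 were below both WT arrays on each Hif1a-/- array and 3 above. These counts stand beside 9.05% of all genes lower and 15.7% higher. The limma adjusted p of Irf8, Id2 and Klf1 was 0.999 each. The median gap between WT replicate 2 and WT replicate 1 was -0.08 over the 17 genes, against 0.48 for the 10 stem cell factors.

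Markers of other cells were set beside the members that such cells also express. The endothelial genes Cdh5 and Kdr, which mark cells that use Erg, differed by -0.02 and -0.08, while Pecam1, which blood cells also express, read 10.58 and 10.65 in Hif1a-/- cells, against 11.01 and 11.01 in WT cells. The Pecam1 groups did not overlap, and the difference was -0.40 ± 0.12 (SE) with an unadjusted limma p of 0.0149. Egfl7 and Vwf, further endothelial genes, differed by 0.20 and 0.13, and Esam and Tie1 by -0.12 and -0.11. Emcn had the largest difference of this list, -0.48. It read 6.69 and 7.07 in Hif1a-/- cells, against 6.53 and 8.195 in WT cells, so the WT values enclosed both Hif1a-/- values. The summed linear signal of the 8 endothelial genes was 4065 and 4135 in Hif1a-/- cells, against 4321 and 4849 in WT cells. Pecam1 was the largest term of this sum on every array. Of the 8, 6 had a lower mean in Hif1a-/- cells. Among them, 2 (Kdr and Pecam1) were below both WT arrays on each Hif1a-/- array, beside 9.05% of all genes. Vwf was above both, beside 15.7% of all genes, and the other 5 overlapped. The part of this list in the Erg difference was not tested.

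Of 8 mast cell genes, which mark cells rich in Gata2, 7 read lower on average in Hif1a-/- cells, and the summed signal was 24360 and 30020 in Hif1a-/- cells, against 34350 and 30330 in WT cells. Mcpt4, a mast cell chymase, read 8.21 and 8.26 in Hif1a-/- cells, against 9.52 and 9.56 in WT cells. Tpsb2, a tryptase, differed by -0.87 and Cma1, another chymase with groups that overlapped, by -0.85. With 1 array left out these ran from -1.30 to -0.45 for Tpsb2 and from -1.36 to -0.35 for Cma1. Gata2 differed by -0.03 over the same arrays, with WT replicate 1 highest and WT replicate 2 lowest. Mcpt4, Tpsb2 and Cma1 were instead highest on WT replicate 2, by 0.05, 0.52 and 0.715 over WT replicate 1. Ms4a2, Fcer1a and Hdc, also of this list, were highest on WT replicate 1, as Gata2 was. In the list, 4 genes were higher and 4 lower on WT replicate 2 than on WT replicate 1. Of the 8 genes, 1 had both Hif1a-/- values between the WT values, as Gata2 did, beside 32.9% of all genes. It was Hdc, which makes histamine and read 13.14 and 13.29 in Hif1a-/- cells, against 13.57 and 13.12 in WT cells. The part of mast cell RNA in the Gata2 values was not tested. Of 9 T cell and innate lymphoid genes, which mark cells rich in Gata3, all 9 were lower on WT replicate 2 than on WT replicate 1, the opposite of Gata3. Their summed signal was 4907 and 5382 in Hif1a-/- cells, against 6929 and 4811 in WT cells. Il7r, the receptor of interleukin-7, differed by -0.62 between genotypes, Cd4 by 0.18 and Thy1 by -0.14, and Il7r gave -0.088 without WT replicate 1.

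Most surface genes of stem and progenitor cells had the same order as Mecom, Mycn and Hmga2 on the WT arrays. Of 8 measured, 7 were higher on WT replicate 2 than on WT replicate 1, with a median gap of 0.84. Cd27 read 8.29 and 9.37 in Hif1a-/- cells, against 7.71 and 10.08 in WT cells. Cd34 read 10.70 and 11.70 in Hif1a-/- cells, against 10.31 and 12.29 in WT cells. Flt3, a receptor of multipotent progenitors, read 8.99 and 9.58 in Hif1a-/- cells, against 9.02 and 10.48 in WT cells. In these 3 genes, as in Mecom, Mycn, Hmga2, Hlf, Etv6 and Gata3, WT replicate 2 was the highest array and Hif1a-/- replicate 2 the next. Slamf1 and Tek, markers of the most primitive cells, differed by 0.42 and 0.18 between genotypes. Slamf1 read 8.80 and 8.63 in Hif1a-/- cells, against 7.84 and 8.76 in WT cells, with groups that overlapped, and without WT replicate 1 the differences were -0.044 for Slamf1 and 0.034 for Tek. Of the 8 lineage list genes, 7 were lower on WT replicate 2 than on WT replicate 1, with a median gap of -0.59, Ly6g by -2.46, Cd79a by -1.84 and Itgam by -1.61. Between genotypes, Itgax, Ptprc and Cd14 of this list differed by -0.35, -0.39 and -0.28. The lineage list ran opposite to the median of the 10 stem cell factors on the WT arrays, and their part in the spread of the members was not tested.

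**Figure D3:**
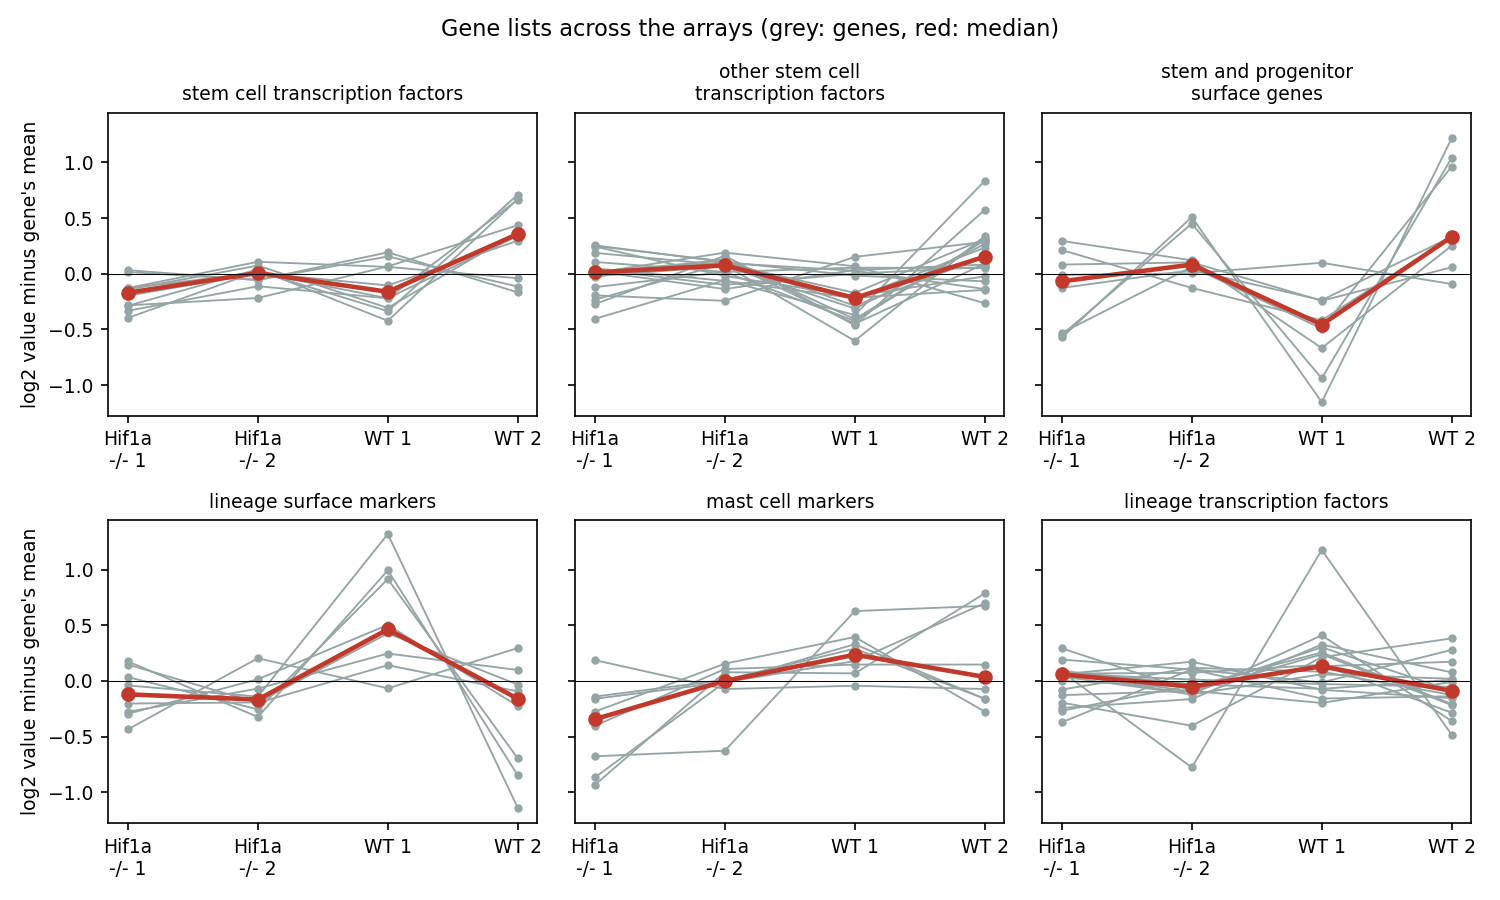
Log2 value of each gene minus its mean over the 4 arrays (y axis, grey lines) and the median of the list (red) on Hif1a-/- replicates 1 and 2 and WT replicates 1 and 2, for the stem cell factors and 5 other lists. The median of the stem cell factors is 0.36 on WT replicate 2 and -0.16 on WT replicate 1, and that of the lineage surface genes is -0.16 on WT replicate 2 and 0.46 on WT replicate 1.

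The comparison of genotypes depended on which WT array was used. With WT replicate 2 as the only WT array, 4 members had a limma adjusted p under 0.05, all lower in Hif1a-/- cells, beside 1.25% of all genes lower and 0.502% higher. These were Mecom at -0.90 (limma adjusted p 0.00341), Mycn at -0.89 (0.00170), Hmga2 at -0.79 (0.00553) and Erg at -0.69 (0.00761). In the same fit 3 members turned in sign, Runx1 to 0.098, Gata2 to 0.15 and Prdm16 to 0.031. With WT replicate 1 as the only WT array, 0 of the 10 had a limma adjusted p under 0.05, beside 3.03% of all genes lower and 4.2% higher. Mecom then differed by 0.15, Hlf by 0.27, Etv6 by 0.16, Gata3 by 0.0088 and Hmga2 by 0.30, all turned in sign, and the median of the 10 was 0.0030. In both fits the lone WT array was assumed to vary as the Hif1a-/- arrays did. Erg and Mycn kept their sign whichever array was left out, Mycn with a value near 0 without WT replicate 2. Without Hif1a-/- replicate 1 the median of the 10 was -0.08, and without Hif1a-/- replicate 2 it was -0.24.

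**Figure D4:**
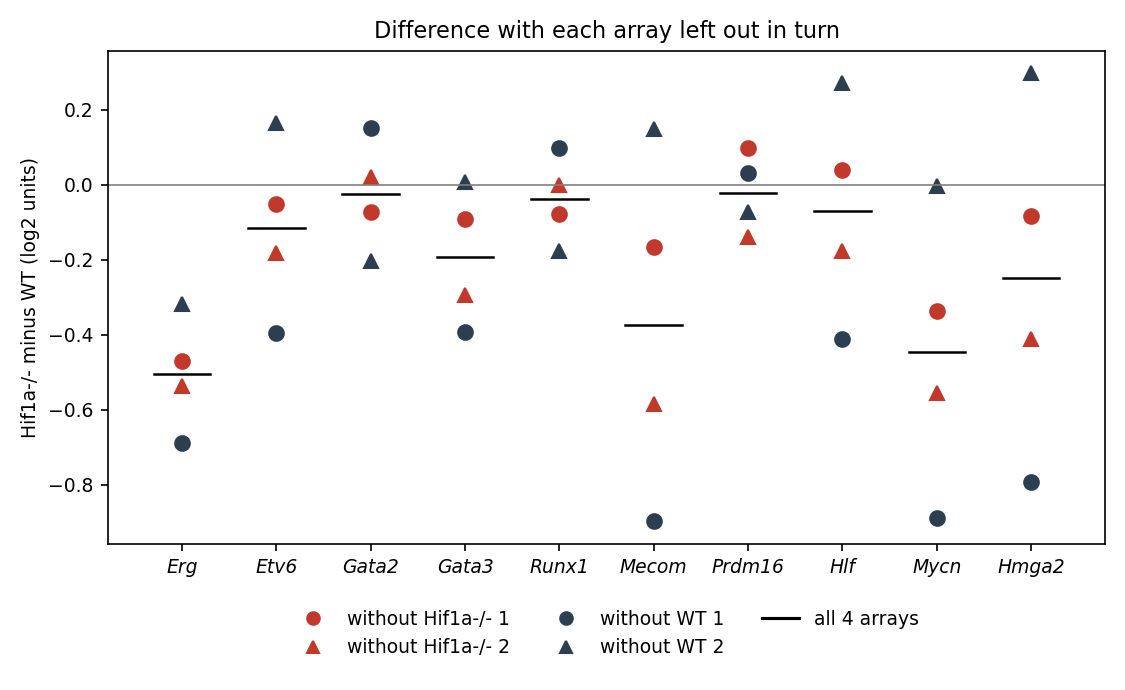
Difference Hif1a-/- minus WT in log2 units (y axis) for each stem cell factor with all 4 arrays (bar) and with 1 array left out (red for Hif1a-/-, dark blue for WT, circle for replicate 1 and triangle for replicate 2). Erg stays between -0.69 and -0.32, and the values of Hmga2 spread from -0.79 to 0.30.

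The promoter windows of the other members are set beside these values, since HIF-1 acts through its DNA site. RefSeq gave 15 windows of 250 bases for the 10 genes. Of these, 6 held ACGTG or GCGTG on either strand, beside 38.6% of all windows, so the count was near that share. The 6 were those of Hlf, Etv6, both starts of Runx1, 1 of 3 of Erg and 1 of 2 of Gata2. The windows of Mecom, Mycn, Hmga2, Gata3 and Prdm16 held neither. Hlf had the most matches, 4 to GCGTG, and Runx1 start 1 held the E-box CACGTG, which contains the HIF core on both strands and is found in 6.02% of all windows. These are shown with the window of Mycn, which had no match. Capitals mark ACGTG or GCGTG on either strand.
Hlf, chr11:90390918-90391167, minus strand: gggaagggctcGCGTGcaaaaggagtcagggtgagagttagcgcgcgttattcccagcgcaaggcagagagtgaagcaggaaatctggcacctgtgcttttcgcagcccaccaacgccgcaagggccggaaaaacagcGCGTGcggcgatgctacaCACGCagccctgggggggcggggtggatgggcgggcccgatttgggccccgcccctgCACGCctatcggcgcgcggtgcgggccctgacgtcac
Runx1 start 1, chr16:92826075-92826324, minus strand: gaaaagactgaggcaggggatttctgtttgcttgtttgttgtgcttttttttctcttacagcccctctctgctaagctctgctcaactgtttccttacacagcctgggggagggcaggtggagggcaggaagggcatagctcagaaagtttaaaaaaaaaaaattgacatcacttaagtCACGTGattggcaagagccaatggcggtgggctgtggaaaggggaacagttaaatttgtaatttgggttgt
Mycn, chr12:12941837-12942086, minus strand: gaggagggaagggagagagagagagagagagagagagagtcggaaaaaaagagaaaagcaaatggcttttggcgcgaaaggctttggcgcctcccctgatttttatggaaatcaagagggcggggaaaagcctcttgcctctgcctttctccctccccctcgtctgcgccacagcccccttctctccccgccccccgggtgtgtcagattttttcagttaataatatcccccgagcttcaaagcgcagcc
Among members with HIF core letters in a window, the difference between genotypes ran from -0.50 for Erg to -0.03 for Gata2, and among those without them from -0.45 for Mycn to -0.02 for Prdm16, none of them past the threshold. The ETS letters CCGGAA occurred in 1 window each of Hlf, Runx1 and Gata3, beside 12% of all windows. The RUNX letters TGTGGT or TGCGGT occurred in none of the 15 windows and in 18.6% of all windows. Absence of these letters says only that they are not in these 250 bases.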

How the data were processed

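Sorted leukemia stem cells were measured on 4 arrays, 2 Hif1a-/- and 2 WT, grouped by the genotype in the sample titles. The authors deposited 1 table of log2 values for 35556 probe sets, made with Affymetrix Expression Console 1.1 and RMA, per the submitters' processing notes; its other settings and a genome build were not given in the sources used here. RMA corrects background, equalises the arrays by quantiles and draws dim differences together, so a change of total RNA is scaled out; the table holds no detection calls. The platform annotation named the probe sets: 21789 carried 1 symbol, 1621 several and 12146 none. The set with the highest mean stood for each of 19938 genes.

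Genes were tested with limma 3.58.1 in R 4.3.3 (lmFit, eBayes) with genotype as the only term, and p-values were adjusted by Benjamini-Hochberg over all genes at 0.05. Residual degrees of freedom were 2 and prior ones 4.46. The procedure was tested on simulated data with equal spread in both genotypes. In the real arrays the replicate gap had an SD over all genes of 0.35 in WT and 0.19 in Hif1a-/- cells. Such unequal spread was not simulated. The members and 9 comparison lists (115 entries, 104 measured) were chosen with earlier results of these data known, so lists are described by counts and medians. Named were every member, Hif1a, the 3 genes of each list with the smallest p, and partners or relatives of members. Ly6g, Cd79a, Itgam, Cd27, Cd34, Kit, Hdc, Ms4a2, Fcer1a and Cdh5 were named after their values were seen or by the likeness rule. So were Kdr, Emcn, Esam, Tie1, Cd48, Sox4, Meis1, Nfix and Myb. The labels do not say whether equal replicate numbers pair samples. Deviations from the genotype mean correlated at -0.0072 over all genes, which cannot settle it, since a shared effect may touch few genes. Promoters are RefSeq's, GRCm38.p6.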

Additional observations from a re-analysis of the deposited data

How the results depend on the processing

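Precision is limited by the number of arrays: over all genes the standard error of a difference had a median of 0.14. Over all genes, 0 had a limma adjusted p under 0.05, also with filters at the median and the 25th percentile, second quantile normalization, centred medians, averaged probe sets, all probe sets of the table and a threshold of 0.1. The count was 1 with a variance trend, 2 with a robust trend and 334 at an unadjusted p of 0.05. With replicate number as a block, a pairing that the labels do not state, it was 47, with 0 of the 10 members among them. Leaving out 1 array gave 2 to 1442 genes, and 2 to 9 members with groups that did not overlap, since fewer arrays overlap less. Of all genes, 19.5% lower and 31.4% higher did not overlap without Hif1a-/- replicate 1, 19.7% and 30.4% without Hif1a-/- replicate 2, 32.3% and 43% without WT replicate 1, and 30.7% and 42.5% without WT replicate 2.

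The median difference of the members, -0.15, ran from -0.40 to 0.0030 with 1 array left out. With 1 array left out, the difference ran from -0.90 to 0.15 for Mecom, -0.41 to 0.27 for Hlf, -0.69 to -0.32 for Erg, -0.18 to 0.098 for Runx1, -0.20 to 0.15 for Gata2, -0.39 to 0.0088 for Gata3, -0.40 to 0.16 for Etv6, -0.14 to 0.097 for Prdm16, -0.89 to -0.0029 for Mycn and -0.79 to 0.30 for Hmga2. Lowest and highest values came with 1 of the WT arrays left out, except for Prdm16. Among the other alternatives only the second quantile normalization turned a sign, for Gata2 (0.026). The filter at the median left out Mecom and Gata3, and the mean of its probe sets gave -0.16 for Mecom.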
